A study of Mus musculus with 22 samples.

Results

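The comparison set microglia of aged female mice against microglia of middle-aged female mice, 3 libraries against 5, and its members are the 8 of the series' 22 RNA sequencing libraries whose labels give female sex and either of these ages. Aged females were 96 to 104 weeks old and middle-aged females 50 to 54 weeks, both of the strain C57BL/6J, untreated, and titled SPF, with 104 or 52 weeks in the titles. No genetic change or agent separates the groups or is shared by them, per the labels. Cells were sorted from whole brain as CD11b+CD45lowLin-, so brain regions were pooled, and the labels do not say whether a library came from 1 animal. The rest of the series holds young adult females (6 to 10 weeks, 3 libraries) and males of the same 3 ages (11 libraries). The titles number the libraries 1, 2 and 3 for the aged and 2 to 6 for the middle-aged females, and values below follow that order.

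Microglia are the resident macrophages of the brain. In the healthy adult they express a homeostatic set of genes, many of them receptors and regulators that depend on signals from surrounding neurons and astrocytes. With age, amyloid or loss of myelin, a share of them takes on other known states: one called disease-associated, with genes of lipid uptake and lysosomal breakdown, one led by type I interferon, and one with genes that present antigen on MHC molecules.

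Values are normalized counts, read counts divided by 1 size factor per library. Depth ran from 17.7 to 34.4 M reads over the 22 libraries and over the 8 alike. Summed over 7 microglial markers the aged libraries held 1457391 to 1521710 and the middle-aged libraries 1540734 to 1668457 normalized counts, every aged library below every middle-aged one, while 7 neuronal markers summed to 7.85 to 184 over the 8. Aged female 1 and middle-aged female 2 stood apart: 8 neutrophil markers summed to 2276 and 2902 in them and to at most 16.8 in the other 6. Middle-aged female 2 also had 42.4 normalized counts of Xist, the RNA of the inactive X chromosome, against 2321 to 5990 in the other 7. The sum of 5 border-associated macrophage markers was 450, 318 and 357 in the aged and 171, 70.7, 44.7, 56.1 and 41.8 in the middle-aged libraries, without overlap. Of these 5, Ms4a7 was called and stood at 0 in middle-aged females 2, 3 and 4, and the other 5 genes of that list are not analysed here. Choroid plexus and ependymal markers summed to 1724, 742 and 6.73 in the aged libraries and to at most 328 in the middle-aged ones, nearly all of it Ttr. In sorted bulk cells, more cells of a type or state and more RNA per cell cannot be told apart.

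Of 12552 genes tested, 173 (1.38%) were called at an adjusted p under 0.05 by limma, 116 (0.924%) higher and 57 (0.454%) lower in aged females. The higher genes included lipid, lysosomal, antigen-presenting and chemokine genes, and the lower ones included homeostatic regulators and Lars2. In 166 of the 173 the aged and middle-aged libraries did not overlap, a condition that 10.4% of all genes tested met. The calls were made on these same libraries and favour such genes, so this is no separate support. Aged female 1 carried much of the count: without it 21 genes (0.167%) were called, 16 higher (0.127%) and 5 lower (0.0398%). All 173 kept their direction then, which in the 166 without overlap could not have changed, and 19 kept their call. These 19 were Aplp2, Apobec3, Apoe, Ccl3, Ccl4, Cd74, Csf1, Cst7, Gm19522, Gpnmb, Il2rg, Lars2, Lilrb4a, Lpl, Lpp, Lyz2, Stim2, Tap1 and Vcam1. Differences below are log2 fold changes of the normalized count plus 1, aged minus middle-aged, ± SE, and the adjusted p is limma's with Benjamini-Hochberg adjustment over all genes tested.

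**Figure D1:**
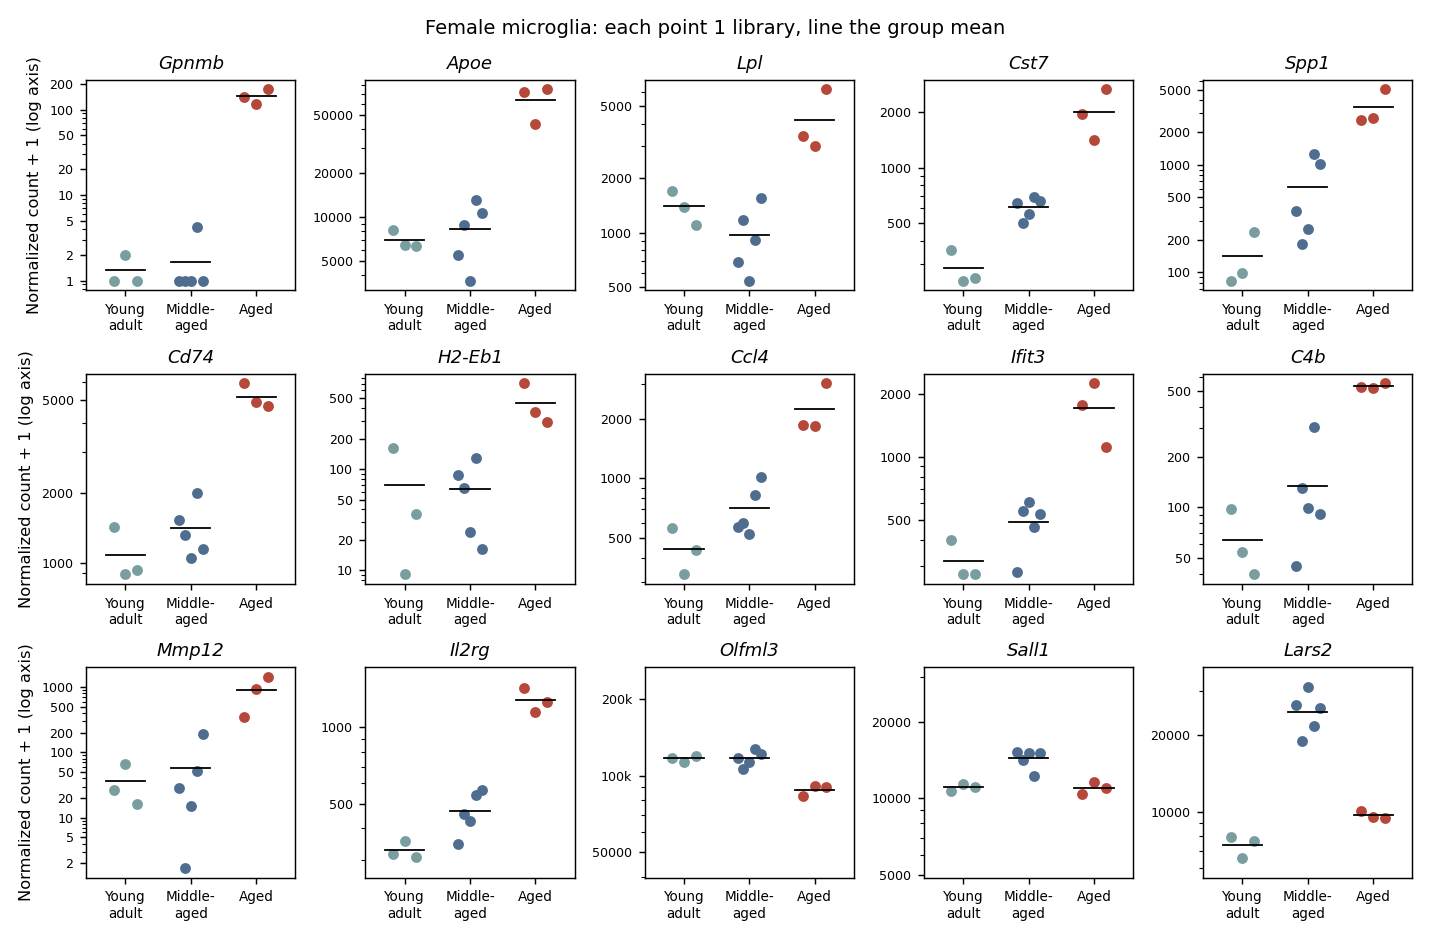
Normalized counts plus 1 (log axes) of 15 genes in the female libraries by age, each point 1 library and each line the group mean. The 3 aged libraries lay above the 5 middle-aged ones for the first 12 genes and below them for Olfml3, Sall1 and Lars2.

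Many genes of the disease-associated state rose in aged females. Of 30 list members tested, 18 rose, 0 fell and 12 did not pass the test, against 0.924% of all genes called higher. The median difference of the list was 1.15, against -0.0019 over all genes tested, and 21 of the 30 had aged libraries wholly above the middle-aged ones, against 5.94% of all genes. Without aged female 1 the median was 0.87 and 7 members were called. The shares of 0.924% higher and 0.454% lower over all genes stand behind each count of list members in females.

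Apoe, the main lipid carrier protein of the brain (chromosome 7, 19696109 to 19699188, GRCm38), was 72412, 43522 and 75297 in the aged and 5496, 8812, 3679, 13212 and 10606 in the middle-aged libraries. Each aged library was above each middle-aged one, with aged females 1 and 3 highest. The difference was 3.03 ± 0.31 (adjusted p = 4.23e-06, and 1.82e-04 without aged female 1). Lpl, lipoprotein lipase, which frees fatty acids from lipoproteins, was 3393, 3019 and 6171 in the aged and 693, 1172, 545, 916 and 1558 in the middle-aged libraries. Aged female 3 was well above aged females 1 and 2, and the groups did not overlap. The difference was 2.13 ± 0.29 (adjusted p = 3.13e-04). Cst7, cystatin F, an inhibitor of lysosomal cysteine proteases, was 1941, 1408 and 2654 in the aged and 640.5, 500.3, 562, 695 and 661 in the middle-aged libraries, with the middle-aged libraries close together and all below the aged ones. Its difference was 1.67 ± 0.22 (adjusted p = 2.00e-04).

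Gpnmb, a membrane glycoprotein of lysosome-rich phagocytes, was close to absent before old age. Its values were 140.2, 115 and 172 in the aged and 0, 0, 0, 3.18 and 0 in the middle-aged libraries, so that 3 reads in all were seen in the middle-aged group, and no fold is given. The adjusted p was 0.00139, and 0.0156 without aged female 1. Lilrb4a, an inhibitory immunoglobulin-like receptor, was 592, 456 and 897 in the aged and 44.7, 87.3, 84.2, 139.8 and 142 in the middle-aged libraries. The groups were apart, and the difference was 2.75 ± 0.44 (adjusted p = 0.00139). Csf1, a ligand of the receptor on which microglial survival depends, was 1975, 1645 and 2031 in the aged and 548, 899, 641, 810.0 and 1034 in the middle-aged libraries, again without overlap. Its difference was 1.29 ± 0.19 (adjusted p = 9.04e-04).

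Spp1, osteopontin, a secreted glycoprotein of phagocytes, varied widely within the middle-aged group. It was 2621, 2690.0 and 5023 in the aged and 374, 184, 254, 1257 and 1015 in the middle-aged libraries, and middle-aged females 5 and 6 held several times the level of females 2 to 4 while all stayed below the aged libraries. The difference was 2.81 ± 0.71 (adjusted p = 0.0476), just inside the threshold, and the adjusted p was 0.146 without aged female 1. Lgals3, galectin-3, which binds sugars on damaged lysosomes, was 841, 779.9 and 1306 in the aged and 187, 155, 75.3, 179 and 317 in the middle-aged libraries. Aged female 3 was highest again, and the difference was 2.51 ± 0.48 (adjusted p = 0.00929, and 0.0548 without aged female 1). Fabp5, a carrier of fatty acids in the cytosol, was 105, 56.3 and 136 in the aged and 10.3, 13.2, 8.93, 10.6 and 19 in the middle-aged libraries. It differed by 2.86 ± 0.56 (adjusted p = 0.0111).

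Surface receptors of the list rose as well. Axl, a receptor that takes up dying cells, averaged 4839 ± 746 (SD, n = 3) in aged and 1523 ± 597 (SD, n = 5) in middle-aged females, a difference of 1.77 ± 0.36 (adjusted p = 0.0136). Clec7a, the receptor dectin-1 for fungal glucans, averaged 3432 ± 659 and 1469 ± 382, and differed by 1.25 ± 0.23 (adjusted p = 0.00603). Itgax, the integrin CD11c, averaged 1139 ± 399 and 438 ± 155, and differed by 1.39 ± 0.34 (adjusted p = 0.0408). None of these receptors overlapped between the groups, and each adjusted p was above 0.05 without aged female 1 (0.0794, 0.0503 and 0.183). Lyz2, lysozyme, was 16434, 11525 and 12606 in the aged and 4842, 7193, 4733, 8656 and 6241 in the middle-aged libraries. It differed by 1.12 ± 0.17 (adjusted p = 9.86e-04), and the call held without aged female 1 (0.0245).

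Lysosomal members of the same list with high levels did not pass. Ctsd, the protease cathepsin D, averaged 652065 ± 62475 and 606675 ± 66108, and its libraries overlapped (difference 0.11 ± 0.10, adjusted p = 0.703). Ctsz, cathepsin Z, likewise overlapped, at 84264 ± 3920.1 and 75278 ± 7846 (difference 0.17 ± 0.07, adjusted p = 0.291). Of 39 lysosomal genes tested, 2 rose, 0 fell and 37 did not pass, with a median of 0.09. The 2 were Psap, the precursor of the saposins that help break down sphingolipids, and Ctsb, cathepsin B. Psap averaged 105450.4 ± 6903 against 73691 ± 8384 (difference 0.52 ± 0.11, adjusted p = 0.0137). Ctsb averaged 186728 ± 11908 against 149814 ± 9766 (difference 0.32 ± 0.08, adjusted p = 0.0489). Neither lysosomal call held without aged female 1.

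**Figure D2:**
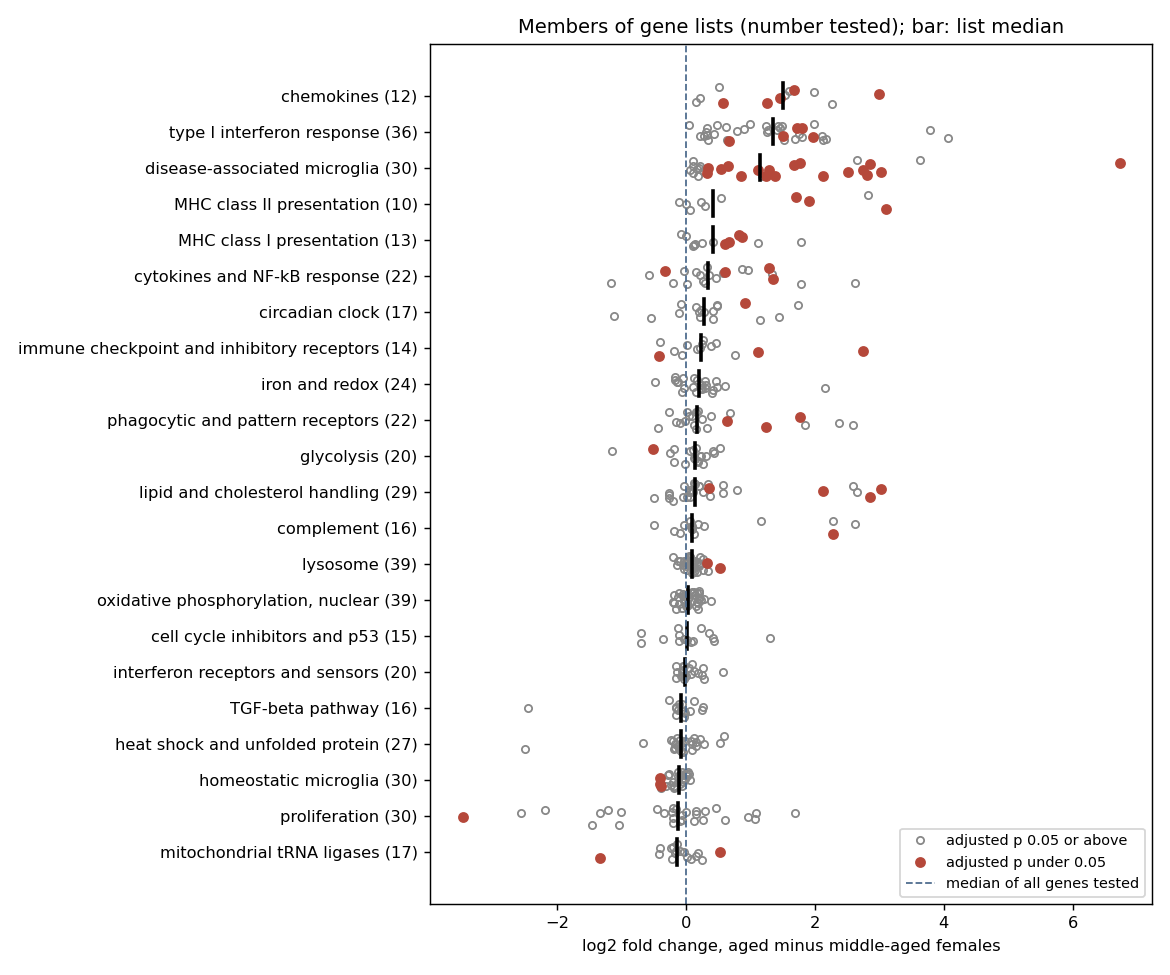
Log2 fold change (aged minus middle-aged females) of every tested member of 22 gene lists, filled where the adjusted p was under 0.05, with a bar at each list's median and a dashed line at the median of all genes tested. The disease-associated, interferon and chemokine lists have medians of 1.15, 1.34 and 1.497, and the homeostatic list lies at -0.11.

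Of 29 genes of lipid and cholesterol handling tested, 4 rose, 0 fell and 25 did not pass, with a median of 0.13, against 0.924% of all genes called higher. DESeq2 called 8 of them, and in 9 the aged libraries lay wholly above the middle-aged ones, against 5.94% of all genes. The 4 were Apoe, Lpl, Fabp5 and Abca1, the transporter that loads cholesterol onto lipoproteins. Abca1 averaged 8956 ± 869.6 against 7012 ± 564, without overlap, a difference of 0.35 ± 0.09 (adjusted p = 0.0451, and 0.197 without aged female 1).

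Several macrophage genes outside the pathway lists rose from low levels. Mmp12, the elastase of macrophages, was 342, 937 and 1426 in the aged and 27.5, 0.693, 14, 50.8 and 189 in the middle-aged libraries. All aged libraries were above all middle-aged ones, aged female 3 being the highest and aged female 1 the lowest of the aged. The difference was 5.04 ± 1.10 (adjusted p = 0.0197). Rab7b, a small GTPase of traffic from endosomes to the Golgi, was 185, 179 and 389 in the aged and 16, 34, 12.8, 31.8 and 60.8 in the middle-aged libraries. Aged female 3 was highest here too, and the difference was 3.08 ± 0.67 (adjusted p = 0.0186).

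Pla2g2d, a secreted phospholipase, was 0 in all but 1 of the middle-aged libraries, middle-aged female 2, where it was 5.73. It was 70.1, 35.6 and 53.8 in the aged libraries (adjusted p = 0.0139), and with 5 reads in the middle-aged group no fold is given. Ms4a7, a membrane protein of macrophages outside the brain tissue proper, was 120.0, 21.8 and 88.6 in the aged and 0, 0, 0, 6.35 and 6.34 in the middle-aged libraries. Aged female 2 was the lowest of the aged libraries, still above the middle-aged ones, and the difference was 4.82 ± 1.09 (adjusted p = 0.0236). Ms4a7 is itself in the border-associated macrophage sum given above, and the part of such cells in these results was not tested. Gpx3, a secreted peroxidase, was 32.4, 58.6 and 63.9 in the aged and 4.58, 3.46, 5.1, 0 and 0 in the middle-aged libraries. It differed by 4.21 ± 0.90 (adjusted p = 0.0178). Slamf7, a receptor of activated immune cells, differed by 3.71 ± 0.93 (adjusted p = 0.0453), from 51.2, 114 and 79.6 in the aged to at most 21.7 in the middle-aged libraries. None of the calls of Mmp12, Rab7b, Pla2g2d, Ms4a7, Gpx3 and Slamf7 held without aged female 1, with adjusted p of 0.0575, 0.0796, 0.0918, 0.161, 0.0673 and 0.132. With all libraries edgeR called Mmp12 and Rab7b (adjusted p = 0.0191 and 0.0167). It did not call Pla2g2d, Ms4a7, Gpx3 and Slamf7 (0.137, 0.0527, 0.0512 and 0.141). Ms4a7 and Gpx3 had 11 and 13 reads in the middle-aged group, so the size of their differences is uncertain.

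Vcam1 and Il2rg, chosen after their values were seen, were among the calls that held without that library. Vcam1, an adhesion molecule for leukocytes, was 3643, 2557 and 2468 in the aged and 566, 763, 793, 1453 and 886 in the middle-aged libraries. Il2rg, the receptor chain shared by several interleukins, was 1421, 1151 and 1262 in the aged and 344, 452, 426, 541 and 564 in the middle-aged libraries. Neither gene overlapped between the groups. The difference was 1.74 ± 0.28 for Vcam1 (adjusted p = 0.00199) and 1.47 ± 0.19 for Il2rg (adjusted p = 1.79e-04). Tspo, a protein of the outer mitochondrial membrane used as a target for imaging of glia, was also chosen after its values were seen. It averaged 1537 ± 167 against 1056 ± 133, a difference of 0.54 ± 0.13 (adjusted p = 0.0258, and 0.186 without aged female 1).

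In MHC class II antigen presentation both beta chains and the invariant chain were called higher by limma. The alpha chain H2-Aa was also higher without overlap but did not pass limma, and the loading gene H2-DMa overlapped. Of 10 class II genes tested, 3 rose, 0 fell and 7 did not pass, with a median of 0.42. The number called was 4 by edgeR, 3 by DESeq2 and 4 in a limma fit of the 8 libraries alone. Cd74, the invariant chain that escorts class II molecules, was 5921, 4889.6 and 4717 in the aged and 1522, 1313, 1048, 1999 and 1145 in the middle-aged libraries. The groups were far apart, and the difference of 1.91 ± 0.19 had, with that of Apoe, the smallest adjusted p among the genes named here (4.23e-06, and 1.82e-04 without aged female 1). H2-Ab1, a class II beta chain, was 2158, 1473 and 1115 in the aged and 710.4, 479, 315, 601 and 346 in the middle-aged libraries. Aged female 1 was highest and aged female 3 lowest of the aged, and the difference was 1.70 ± 0.28 (adjusted p = 0.00199, and 0.0506 without aged female 1).

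H2-Eb1, the other beta chain, was 706, 366 and 288 in the aged and 85.9, 64.4, 23, 127 and 15.2 in the middle-aged libraries. It spread widely among the middle-aged libraries, all of them below the aged ones, and the difference was 3.11 ± 0.70 (adjusted p = 0.0236). H2-Aa, the alpha chain that pairs with H2-Ab1, was 971, 709 and 523 in the aged and 229, 102, 39.6, 166 and 63.4 in the middle-aged libraries. The groups did not overlap, but the difference of 2.82 ± 0.99 did not pass limma (adjusted p = 0.177). With edgeR H2-Aa was called, at a difference of 2.59 (adjusted p = 0.0425). H2-DMa, part of the complex that loads peptides, averaged 8230.0 ± 141 and 7883 ± 568 and overlapped (difference 0.06 ± 0.07, adjusted p = 0.757). Without aged female 1, Cd74 alone of the class II list was called, and the median was 0.19. Border-associated macrophages and dendritic cells express these genes as well. Markers of dendritic cells summed to 70.1, 56.3 and 8.97 in the aged and to 59.6, 4.85, 7.66, 5.29 and 12.7 in the middle-aged libraries, and their part was not tested.

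Of 13 MHC class I genes tested, 4 rose, 0 fell and 9 did not pass, with a median of 0.42. Tap1, a subunit of the pump that carries peptides to class I molecules, was 3036, 2600.5 and 2464 in the aged and 1404, 1689.9, 1914, 1815 and 1667 in the middle-aged libraries. The difference was 0.67 ± 0.11 (adjusted p = 0.00139), and it held without aged female 1 (0.0378). The heavy chains H2-D1 and H2-K1 averaged 17189 ± 3960.5 and 24862 ± 5306 in aged against 9497 ± 2235 and 14031 ± 2670.3 in middle-aged females. They differed by 0.86 ± 0.17 and 0.82 ± 0.15 (adjusted p = 0.0111 and 0.00659), and neither call held without aged female 1. B2m, the light chain of all class I molecules, averaged 80698 ± 12946 against 53396 ± 8388, a difference of 0.60 ± 0.13 (adjusted p = 0.017, and 0.161 without aged female 1). The heavy chains are near-identical to other class I genes, so how the authors' counting divided reads among them is uncertain.

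Of 36 type I interferon genes tested, 5 rose, 0 fell and 31 did not pass, against 0.924% of all genes called higher. The median was 1.34, all 36 differences were above 0, and in 24 the aged libraries lay wholly above the middle-aged ones, against 5.94% of all genes. Without aged female 1 the median was 1.25, 0 members were called by limma and 24 had an unadjusted p under 0.05. The number called with all libraries was 7 by edgeR, 13 by DESeq2 and 11 in a limma fit of the 8 libraries alone.

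Promoters of these genes were examined for the sequence element that interferon signalling is known to act through, the interferon-stimulated response element. Its core was searched as GAAA, then 2 bases of any kind, then GAAA, on both strands in the 250 bases before each gene's start, in RefSeq promoters of GRCm38.p6. It was found in 14 of the 27 list genes that had a promoter in that table (51.9%) and in 936 of 27025 genes in all (3.46%). Of the called members, Ifit3 and Bst2 held it, Ifitm3 did not, and Rtp4 and Zbp1 had no promoter there. In the promoters of Ifit3 and Bst2, printed 5′ to 3′ along the gene's strand, capitals mark the matches, 2 in each. Those of Bst2 overlap, and those of Ifit3 read on the opposite strand.
Ifit3 (chr19:34583279-34583528, plus strand): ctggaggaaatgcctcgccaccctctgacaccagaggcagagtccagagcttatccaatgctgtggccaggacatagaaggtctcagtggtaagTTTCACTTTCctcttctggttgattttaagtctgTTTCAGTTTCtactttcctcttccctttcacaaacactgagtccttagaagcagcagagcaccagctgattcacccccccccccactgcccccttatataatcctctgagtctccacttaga
Bst2 (chr8:71537473-71537722, minus strand): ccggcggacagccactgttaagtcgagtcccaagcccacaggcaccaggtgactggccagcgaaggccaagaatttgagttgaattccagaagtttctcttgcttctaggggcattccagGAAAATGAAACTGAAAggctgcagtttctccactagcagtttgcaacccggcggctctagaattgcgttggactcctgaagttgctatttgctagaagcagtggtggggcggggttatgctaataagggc
A match is a description of these letters and shows no binding.

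Ifit3, a member of the interferon list, was 1762, 2251 and 1112 in the aged and 279.6, 546, 607, 457 and 533 in the middle-aged libraries. Aged females 1 and 2 were higher than aged female 3, the reverse of Lpl and Spp1, and all were above the middle-aged libraries. The difference was 1.80 ± 0.37 (adjusted p = 0.015). Bst2, tetherin, which holds budding viruses at the cell surface, was 3377, 2932 and 2317 in the aged and 1599.5, 1779, 1909, 1812 and 1874 in the middle-aged libraries. It differed by 0.67 ± 0.13 (adjusted p = 0.01). Rtp4, an interferon-induced receptor chaperone, was 3330.0, 2598 and 1610.4 in the aged and 652, 1021, 992, 904 and 746 in the middle-aged libraries, again lowest of the aged in aged female 3. Its difference was 1.499 ± 0.26 (adjusted p = 0.00307).

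Zbp1, a sensor of nucleic acids in the Z form, averaged 331 ± 102 against 85 ± 28.2 (difference 1.97 ± 0.44, adjusted p = 0.021). Ifitm3, a membrane protein that blocks viral entry, averaged 1457 ± 469.9 against 448 ± 149.7 (difference 1.72 ± 0.40, adjusted p = 0.0282). Middle-aged female 2 was the lowest of its group for Ifit3, Zbp1, Rtp4, Bst2 and Ifitm3. Receptors and sensors upstream of the response were not called: of 20 tested, 0 rose and 0 fell by limma, edgeR and DESeq2 alike, 2 had an unadjusted p under 0.05, and the median was -0.02.

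**Figure D3:**
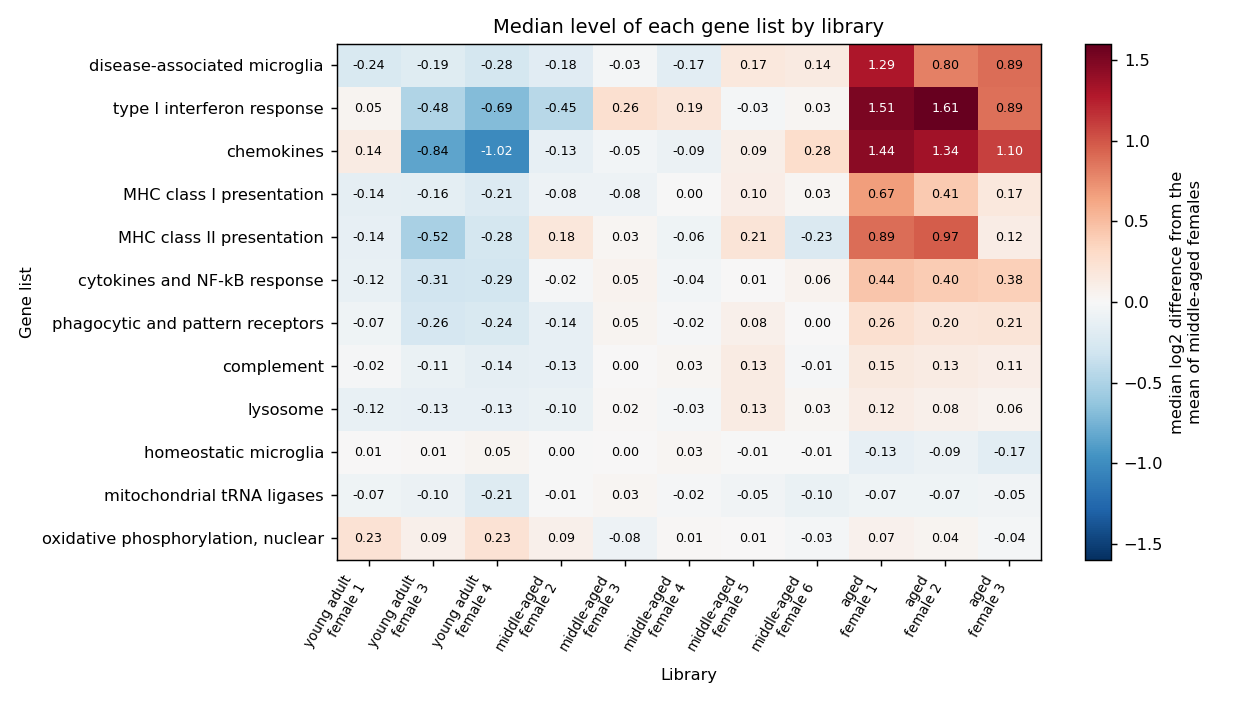
Median over list members of the log2 difference from the mean of the middle-aged females, for 12 gene lists (vertical) in each female library (horizontal), red where above and blue where below. The interferon list stood at 1.51, 1.61 and 0.89 in aged females 1, 2 and 3, and the class II list at 0.89, 0.97 and 0.12, while the disease-associated list stood at 1.29, 0.80 and 0.89.

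The plot of list medians by library shows how the 3 aged libraries differed among themselves. The class II median of aged female 3, 0.12, lay inside the range of the middle-aged libraries, which ran from -0.23 to 0.21. Summed over the same 10 genes, however, aged female 3 held 21199 normalized counts, above every middle-aged library (14870 to 18011). In Cd74, H2-Ab1, H2-Eb1 and H2-Aa aged female 3 was also above them all. Its disease-associated, interferon and chemokine medians lay above every middle-aged library. With 3 libraries these differences among the aged females could not be tested.

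Chemokines rose in 5 of 12 genes tested, 0 fell and 7 did not pass, with a median of 1.497, against 0.924% of all genes called higher. edgeR called 3 of them and DESeq2 6. Ccl3 and Ccl4, chemokines that draw monocytes and T cells, were among the calls that held without aged female 1. Ccl3 was 1109.5, 1173 and 2047 in the aged and 583, 373, 408, 574 and 639.8 in the middle-aged libraries, and aged female 3 was highest. Ccl4 was 1860.5, 1846 and 3021 in the aged and 572, 598, 526, 826 and 1011 in the middle-aged libraries, again highest in aged female 3. The differences were 1.46 ± 0.25 (adjusted p = 0.0027) and 1.67 ± 0.23 (adjusted p = 2.93e-04).

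Ccl12, a chemokine for monocytes, was 4178, 4003 and 2951 in the aged and 1354, 1570.1, 1949, 1393 and 1503 in the middle-aged libraries, with aged female 3 lowest of the aged. It differed by 1.25 ± 0.31 (adjusted p = 0.0422). Cxcl16, a membrane-bound chemokine and scavenger receptor, averaged 4125 ± 366 against 2807 ± 482 (difference 0.57 ± 0.13, adjusted p = 0.021). Cxcl14 was 93, 59.7 and 94.2 in the aged and 13.7, 2.77, 6.38, 11.6 and 20.3 in the middle-aged libraries (difference 3.0 ± 0.73, adjusted p = 0.0353). Without aged female 1 these 3 chemokines did not pass, with adjusted p of 0.197, 0.151 and 0.174.

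Of 22 genes of cytokines and the NF-kB response tested, 3 rose, 1 fell and 18 did not pass, with a median of 0.34. Csf1, above, was one of the 3. Il1b, the inflammatory cytokine interleukin 1 beta, was 355, 306 and 265 in the aged and 103, 79.7, 131, 155 and 148 in the middle-aged libraries, without overlap. It differed by 1.34 ± 0.32 (adjusted p = 0.0349, and 0.186 without aged female 1). Cd83, a surface protein of activated antigen-presenting cells, averaged 13573 ± 1895 against 8971 ± 1702 (difference 0.61 ± 0.13, adjusted p = 0.017). Nfkb1, the gene of the NF-kB subunit p50, was the 1 that fell: 3516, 3517 and 3547 in the aged and 4474, 4181, 4435, 4459 and 4565 in the middle-aged libraries. The 3 aged libraries agree closely, and the difference was -0.33 ± 0.07 (adjusted p = 0.0193). Tnf, tumour necrosis factor, was 178, 155 and 141 in the aged and 48.1, 39.5, 71.5, 38.1 and 35.5 in the middle-aged libraries. The groups did not overlap, but the difference of 1.78 ± 0.85 did not pass (adjusted p = 0.353).

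Receptors and complement moved in single genes. Of 22 phagocytic and pattern receptors tested, 3 rose, 0 fell and 19 did not pass, with a median of 0.17, and DESeq2 called 5. Besides Axl and Clec7a this was Tlr2, a receptor for bacterial lipoproteins, at 16643, 14938 and 16985 in the aged and 8919, 11629, 10240.2, 11177 and 10226 in the middle-aged libraries. It differed by 0.64 ± 0.14 (adjusted p = 0.0171). Of 16 complement genes tested, C4b alone rose, 0 fell and 15 did not pass, with a median of 0.10. C4b, the component that marks targets for clearance, was 527, 518 and 553 in the aged and 43.5, 130.3, 98.3, 302 and 90 in the middle-aged libraries. The aged libraries were nearly equal while the middle-aged ones spread from 43.5 to 302, and the difference was 2.28 ± 0.49 (adjusted p = 0.0184). C1qb, a chain of the first component, averaged 283368 ± 16742 against 260776 ± 19617 (difference 0.12 ± 0.09, adjusted p = 0.604). The calls of Tlr2 and C4b did not hold without aged female 1 (0.102 and 0.0884).

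Of 14 checkpoint and inhibitory receptors tested, 2 rose, 1 fell and 11 did not pass, with a median of 0.23. Pdcd1, the receptor PD-1 best known from T cells, was 1557, 1164 and 1406 in the aged and 567, 823, 469.6, 771 and 587 in the middle-aged libraries, while T and NK cell markers summed to 0 in all 3 aged libraries and to at most 16.04 in the middle-aged ones. That sum covers 3 of the 9 markers of its list, the other 6 are not analysed here, and the part of such cells was not tested. The difference of Pdcd1 was 1.12 ± 0.25 (adjusted p = 0.0236, and 0.156 without aged female 1). Lilrb4a, above, was the other that rose. Siglece, an inhibitory receptor for sialic acids, was 3217, 4443 and 3729.9 in the aged and 4125, 5579.7, 5398, 5278 and 5048 in the middle-aged libraries. The groups overlapped, since middle-aged female 2 lay below aged female 2, and the difference was -0.43 ± 0.10 (adjusted p = 0.0349, and 0.271 without aged female 1).

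Homeostatic genes moved little, and those called moved down. Of 30 tested, 0 rose, 3 fell and 27 did not pass, against 0.454% of all genes called lower. The median was -0.11, and 5 of the 30 differences were above 0. In 10 the aged libraries lay wholly below the middle-aged ones, against 4.42% of all genes. DESeq2 called 6, edgeR 3, and a limma fit of the 8 libraries alone 5, all of those 5 lower. The 7 microglial markers whose sum was lower in every aged library belong to this list, and what a smaller share of microglia adds was not tested. Without aged female 1 the median was -0.13, 0 were called by limma and 6 had an unadjusted p under 0.05.

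Olfml3, a secreted protein specific to microglia within the brain, was 82852, 91323 and 90344 in the aged and 117035, 106024, 113578, 127948 and 122125 in the middle-aged libraries. Fcrls, an Fc receptor-like gene of microglia, was 86861, 93132 and 99618 in the aged and 126782, 122333, 126668, 120356 and 121368 in the middle-aged libraries. Sall1, the transcription factor that maintains microglial identity, was 10451, 11552 and 10997 in the aged and 15301, 14196, 15168, 12297 and 15169 in the middle-aged libraries. For each of them every aged library was below every middle-aged one. The differences were -0.41 ± 0.07 for Olfml3 (adjusted p = 0.00219), -0.41 ± 0.08 for Fcrls (adjusted p = 0.0119) and -0.39 ± 0.09 for Sall1 (adjusted p = 0.0384). Without aged female 1 the adjusted p were 0.0506, 0.107 and 0.197.

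The best-known homeostatic markers did not pass. P2ry12, the receptor for ADP that steers microglial processes, averaged 189652 ± 11770.0 against 216799.6 ± 9796 (difference -0.19 ± 0.09, adjusted p = 0.341). Tmem119, a membrane protein used to identify microglia, averaged 133314 ± 13027 against 153875 ± 9671 (difference -0.21 ± 0.08, adjusted p = 0.194). Cx3cr1, the receptor of the neuronal chemokine fractalkine, averaged 138234 ± 11045 against 132313 ± 7873 (difference 0.06 ± 0.08, adjusted p = 0.814). Each of the 3 overlapped between the groups.

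Lars2, the mitochondrial ligase that charges leucine tRNA (chromosome 9, 123366927 to 123462666, GRCm38), had the smallest adjusted p of the lower genes named here. It was 10048, 9498 and 9450.4 in the aged and 26274, 18951, 30963, 21779 and 25759 in the middle-aged libraries. The aged libraries lay close together and far below the middle-aged ones. The difference was -1.34 ± 0.16 (adjusted p = 7.44e-05, and 9.63e-04 without aged female 1). Young adult females stood at 7944, 6584 and 7675, below the aged, so the middle-aged females were the highest of the female groups. Of 17 mitochondrial tRNA ligases tested, Iars2, the isoleucine ligase, rose, Lars2 fell and 15 did not pass, with a median of -0.15. Iars2 was 1240.3, 1454 and 1321 in the aged and 923, 982, 916, 946 and 872 in the middle-aged libraries (difference 0.53 ± 0.12, adjusted p = 0.0316).

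No other gene is annotated over Lars2 in GENCODE M21. Reads of ribosomal RNA are known to align inside this gene, so Rn45s, the ribosomal RNA precursor, was examined beside it. Rn45s was 64501, 45214 and 45147 in the aged and 22694, 20993, 56423, 33057 and 25803 in the middle-aged libraries. It was not lower in the aged group (difference 0.78 ± 0.25, adjusted p = 0.136), and middle-aged female 4 was highest of its group in both genes. Its part in the Lars2 values was not tested.

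A further group of lower genes belongs to none of the lists. Bbs1, a subunit of the complex that sorts proteins into cilia, was 5.39, 52.8 and 28 in the aged and 132, 59.6, 99.5, 143 and 169 in the middle-aged libraries (difference -2.41 ± 0.53, adjusted p = 0.0198). Aged female 1 was lowest, and without it the difference was -1.53 (adjusted p = 0.198). Lpp, an adhesion-site protein with LIM domains, was 268, 288 and 234 in the aged and 605, 611, 522, 440.5 and 621 in the middle-aged libraries. It fell in all 3 aged libraries by similar amounts, a difference of -1.08 ± 0.16 (adjusted p = 9.04e-04), and the call held without aged female 1 (0.009). Klf2, a transcription factor that restrains inflammatory activation, was 109, 116 and 85.2 in the aged and 186, 256, 277, 237 and 238 in the middle-aged libraries. It differed by -1.20 ± 0.30 (adjusted p = 0.0441), and the call was lost whichever of the 8 libraries was left out.

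Fam110a was 1428, 1814 and 1934 in the aged and 3044, 2609, 2754, 2635 and 3019 in the middle-aged libraries (difference -0.71 ± 0.12, adjusted p = 0.00219). Klhdc8b, a kelch protein of dividing cells, was 674, 921 and 939.8 in the aged and 1569.7, 1348, 1326, 1175 and 1178 in the middle-aged libraries (difference -0.65 ± 0.15, adjusted p = 0.0236). The ranges of both genes were apart, and aged female 1 was lowest for each. Itpr1, a calcium channel of the endoplasmic reticulum, Slc9a3r2, a scaffold for membrane transporters, Nrarp, a feedback inhibitor of Notch signalling, and Ythdc2, an RNA helicase, differed by -1.76 ± 0.45, -1.75 ± 0.43, -1.47 ± 0.34 and -1.42 ± 0.34. Their adjusted p were 0.0476, 0.0396, 0.0274 and 0.0353. The differences of Slc9a3r2 and Nrarp without aged female 1 were -1.10 and -0.96, and those of Itpr1 and Ythdc2 were -2.18 and -1.74, and none of these 4 calls held (adjusted p of 0.0575, 0.315, 0.261 and 0.0548 in the order named). Zswim3, Rnf144b (a ubiquitin ligase), Chtf8 (part of a clamp loader of DNA replication), Focad and Ercc1 (a DNA repair endonuclease) differed by -0.96 ± 0.21, -0.95 ± 0.24, -0.87 ± 0.20, -0.80 ± 0.19 and -0.76 ± 0.17. Actb, beta actin, chosen after its values were seen, averaged 33059 ± 2433 against 46090.3 ± 2152 (difference -0.48 ± 0.09, adjusted p = 0.0057).

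Few metabolic and growth genes passed. Of 20 glycolytic genes tested, 1 fell, Hk1, the first enzyme of the pathway, from 1214 ± 88.1 to 853 ± 79 (difference -0.51 ± 0.11, adjusted p = 0.021). Of 30 genes of proliferation tested, 1 fell, Bub1, a kinase of the spindle checkpoint. It was 0 in all aged libraries and 4.58, 9.01, 5.1, 33.9 and 12.7 in the middle-aged ones (adjusted p = 0.0384). Of 17 clock genes tested, 1 rose, Per3, a repressor of the circadian clock, at 448, 247 and 299 in the aged and 202, 193, 188, 121 and 165 in the middle-aged libraries (difference 0.91 ± 0.22, adjusted p = 0.0349). The calls of Hk1, Bub1 and Per3 did not hold without aged female 1 (adjusted p of 0.0575, 0.15 and 0.273). With all libraries edgeR called 0 of the proliferation genes. Of 39 nuclear genes of oxidative phosphorylation, 16 of the TGF-beta pathway and 15 of cell cycle inhibition, 0 were called by limma, edgeR and DESeq2, while 2, 4 and 1 had an unadjusted p under 0.05. Of 27 genes of heat shock and protein folding limma called 0, edgeR 0 and DESeq2 1, with 4 at an unadjusted p under 0.05. Of 24 genes of iron and redox handling limma called 0, edgeR 1 and DESeq2 3, with 8 at an unadjusted p under 0.05. Cdkn1a, the cell cycle inhibitor p21, was 208, 311 and 528 in the aged and 204, 174, 268, 273 and 318 in the middle-aged libraries, with overlap (difference 0.42 ± 0.27, adjusted p = 0.518). Eif2s3y, a gene of the Y chromosome chosen after its values were seen, was the 1 call with a mean under 10 in both groups, at no more than 3.36 in any of the 8 libraries.

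**Figure D4:**
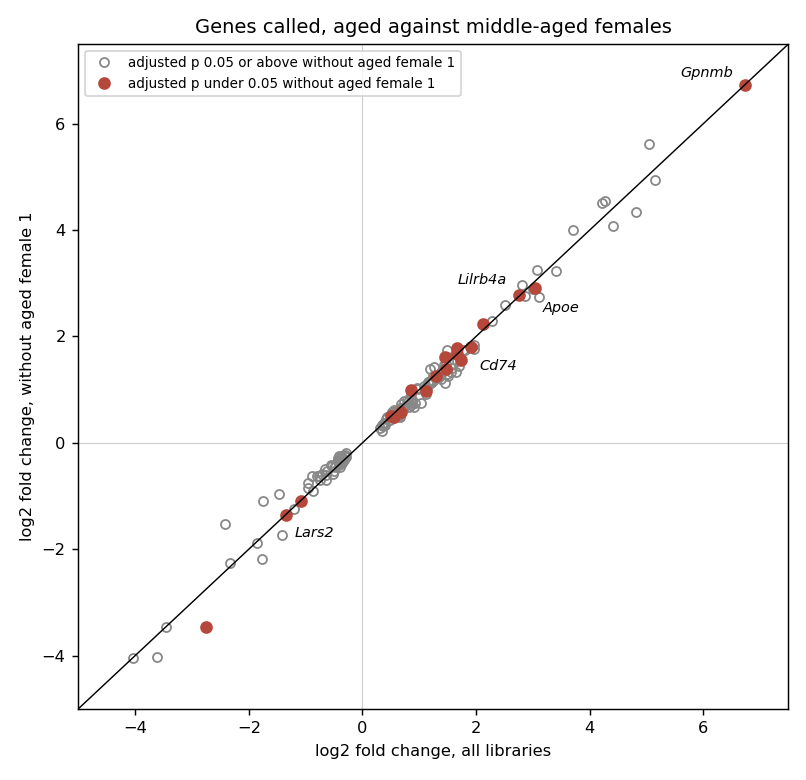
Fitted log2 fold changes (aged minus middle-aged) of the 173 called genes with all libraries (horizontal) and without aged female 1 (vertical), filled where the adjusted p was still under 0.05, with the line of equality. All 173 kept their sign, which for the 166 without overlap between the groups could not have changed, and 19 points are filled.

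Aged female 1 was the most extreme aged library in the direction of the call for 95 of the 173 genes, aged female 3 for 61 and aged female 2 for 22, ties counted for each. Its neutrophil, choroid plexus and border-associated macrophage sums were also the highest of the aged libraries. Without it and middle-aged female 2 together 20 genes (0.159%) were called, 15 higher (0.12%) and 5 lower (0.0398%), and 6 of 30 disease-associated genes were among them. The neutrophil gene S100a9 was 639, 1.15 and 0 in the aged and 652, 1.39, 1.28, 0 and 1.27 in the middle-aged libraries. It marks the 2 libraries and does not separate the ages (adjusted p = 0.909).

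The same step was taken in males, 3 aged against 5 middle-aged libraries that share none with the females. It called 1937 genes (15.4%), 968 higher (7.71%) and 969 lower (7.72%). On the first principal component of the 22 libraries (15.4% of the variance) middle-aged males lay between 20.8 and 40.9 and aged males between -26.95 and -15.02, while middle-aged females lay between -31.1 and -23.7 and aged females between -54.2 and -38.1. Young adult females lay between -2.11 and 1.25 and young adult males between 46.1 and 64.6. In neither sex did aged and middle-aged libraries overlap on this component. Aged males lay on the side of the aged and middle-aged females, away from the other males. Age and that separation cannot be told apart in males. Genes higher in both sexes numbered 42, 36.2% of those higher in females and 4.34% of those higher in males. Genes lower in both numbered 7, 12.3% and 0.722%. A further 9 rose in females and fell in males, and 7 fell in females and rose in males.

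The difference between the sexes in this step was itself tested and called for 900 genes (7.17%), 476 more positive in females (3.79%) and 424 more negative (3.38%). Of the 173 genes called in females 54 (31.2%) were among them, 29 of the higher and 25 of the lower. The difference contains the female values that selected the 173, so a share above 7.17% is no separate support. Rescaling all libraries to the same total moved the median of this difference over all genes from 0.01 to 0.15 and the split to 748 against 161. Values below are relative to the deposited scaling, and all 25 named differences kept their direction under that rescaling, 22 of them their call. Of the 25, 14 kept their call without aged female 1, and 16 did so without aged female 3 and without aged male 4.

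Apoe rose in both sexes and more in females: 1.42 ± 0.43 for the difference (adjusted p = 0.0476, and 0.113 without aged female 1), with 1.61 ± 0.31 in males. Lpl differed by 1.35 ± 0.41 (adjusted p = 0.0485, and 0.0601 without aged female 1), with 0.78 ± 0.29 in males (adjusted p = 0.0737). Lyz2 went in opposite directions, from 10277 ± 1369 (SD, n = 5) to 7176 ± 1701 (SD, n = 3) in males, a step of -0.53 ± 0.17 there (difference 1.65 ± 0.24, adjusted p = 2.30e-04). Ccl3 and Ccl4 did not pass in males (0.25 ± 0.25 and 0.38 ± 0.23), and the sexes differed by 1.21 ± 0.35 and 1.29 ± 0.32 (adjusted p = 0.0368 and 0.0159). Apobec3, a cytidine deaminase that restricts retroviruses, and Slk, a kinase of the cytoskeleton, rose in females by 0.50 ± 0.07 and 0.72 ± 0.12. In males they fell, with steps of -0.34 ± 0.07 and -0.69 ± 0.12, and the adjusted p of the difference was 3.99e-05 and 3.99e-05. Mob3c behaved alike, at 0.41 ± 0.09 in females and -0.47 ± 0.09 in males (difference 0.87 ± 0.12, adjusted p = 1.49e-04).

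**Figure D5:**
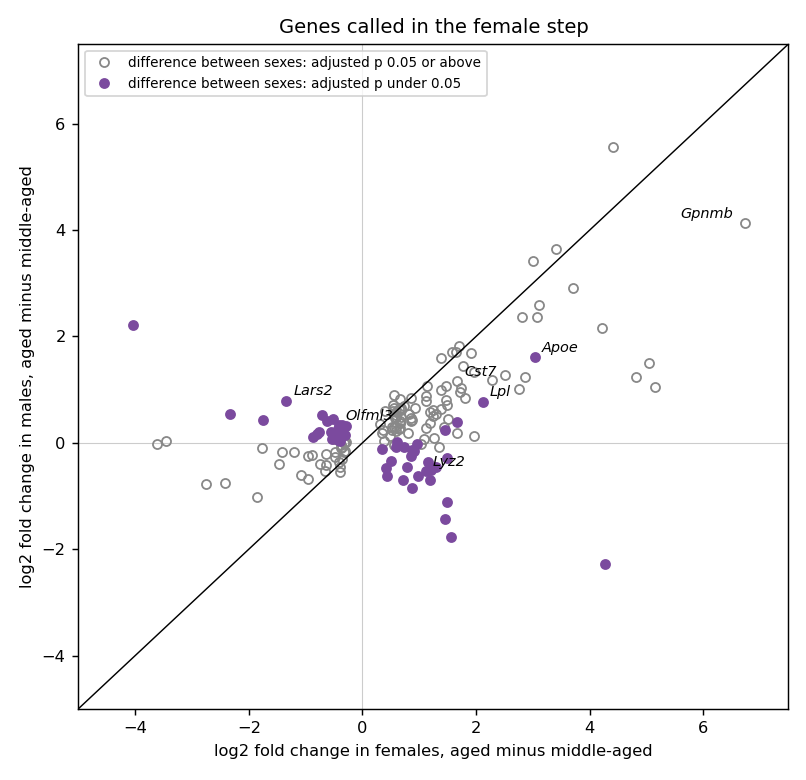
Fitted log2 fold changes (aged minus middle-aged) of the 173 genes called in females, in females (horizontal) and in males (vertical), filled where the difference between the sexes had an adjusted p under 0.05, with the line of equality. 54 points are filled, among them Apoe, Lpl, Lyz2, Lars2 and Olfml3.

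Lars2 and Olfml3 fell in females and rose in males. In males Lars2 rose from 7921 ± 989.8 to 14337 ± 5633, a step of 0.80 ± 0.16, and the difference was -2.13 ± 0.23 (adjusted p = 2.41e-05). Olfml3 rose by 0.33 ± 0.07 in males (difference -0.75 ± 0.10, adjusted p = 8.56e-05). Tmem119, which did not pass in females, rose by 0.57 ± 0.08 in males (difference -0.78 ± 0.11, adjusted p = 1.49e-04). Fcrls and Sall1 did not pass in males, and the sexes differed by -0.58 ± 0.11 and -0.50 ± 0.13 (adjusted p = 0.00344 and 0.0244). Of the 30 homeostatic genes 12 rose and 1 fell in males, with a median of 0.16, against 7.71% and 7.72% of all genes. Hk1 and Fam110a also fell in females and rose in males, with differences of -0.96 ± 0.16 and -1.25 ± 0.17 (adjusted p = 8.18e-04 and 1.30e-04).

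Other genes called in females showed no called difference between the sexes. Cd74 rose by 1.70 ± 0.19 in males (difference 0.21 ± 0.27, adjusted p = 0.7), Cst7 by 1.16 ± 0.22 (difference 0.51 ± 0.31, adjusted p = 0.36) and Tap1 by 0.65 ± 0.11 (difference 0.02 ± 0.15, adjusted p = 0.96). Gpnmb averaged 50.4 ± 44.8 in aged and 10.2 ± 22.8 in middle-aged males, and the difference between the sexes had an adjusted p of 0.331. The male medians were 0.58 for the disease-associated list (17 of 30 rose, 1 fell) and 1.22 for class II (7 of 10 rose), beside 7.71% of all genes higher and 7.72% lower in males. For the interferon list the male median was 0.21, with 0 members higher and 1 lower, and 0 of the 5 members called in females had a called difference between the sexes.

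The preceding step, between young adulthood and middle age, shares the middle-aged libraries with this one, so its values are given side by side only. It called 1189 genes (9.47%), 745 higher (5.94%) and 444 lower (3.54%). Apoe stood at 6992 ± 1036 (SD, n = 3) in young adults and 8361 ± 3837 (SD, n = 5) in middle age, a step of 0.13 ± 0.31, and the later step was 3.03 ± 0.31. Gpnmb averaged 0.338 ± 0.585, 0.635 ± 1.42 and 142 ± 28.4 over the 3 ages. Cst7 took steps of 1.12 ± 0.22 and 1.67 ± 0.22, and Axl of 1.20 ± 0.36 and 1.77 ± 0.36. Pdcd1 took 2.11 ± 0.25 and then 1.12 ± 0.25. Lars2 took 1.73 ± 0.16 and then -1.34 ± 0.16, and Sall1 0.38 ± 0.09 and then -0.39 ± 0.09. P2ry12 fell at the earlier step (-0.35 ± 0.09, adjusted p = 0.0154) and did not pass at the later one.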

How the data were processed

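RNA of sorted microglia was sequenced after SMARTer v4 amplification and Nextera XT library preparation, per the labels' protocols. Per the submitters' processing notes, the build was mm10 and the tools DESeq2 1.32.0, STAR 2.5.2, Trim Galore 0.4.3, R 4.1.0, FastQC 0.67 and MultiQC 1.5.0. A counting tool, not given in the sources used here, made counts per gene symbol. The deposited signal values are read counts that the authors divided by 1 size factor per library: 100% were whole multiples of the value of 1 read, within 0.01 reads, and reads were recovered in that way for depth and count tests. Genes with a value of 10 or more in at least 3 of 22 libraries were tested, 12552 of 18072. Log2 of the value plus 1 was fitted with limma 3.58.1 (trended, two-sided, 6 group means over 22 libraries) in R 4.3.3, with Benjamini-Hochberg adjustment and a threshold of 0.05. No label says that libraries came from separate animals, so a p-value measures their spread alone, which may be technical. The fit was also run on simulated counts, drawn independently for each library. That run held no library that stood apart, so it does not bear on the weight of aged female 1. No label used here says what the replicate numbers mean. The 2 pairs with shared numbers had residual correlations of -0.036 and 0.00296, and 2 pairs are too few to tell whether the numbers mark a shared batch.

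Alternatives were pseudocounts of 0.25 and 8, no filter, TMM, rescaling to equal totals, edgeR 4.0.16, DESeq2 1.42.0, the compared libraries alone, a replicate block, and leaving out each library, or aged female 1 and middle-aged female 2 together. Genes were named by rule: up to 15 per direction with the largest change, a mean of at least 50 and a call, up to 6 called and 2 uncalled members per list, and a short fixed set. Members, lists and rule were chosen with earlier results of these data known. Positions are from GENCODE M21 and promoters from RefSeq, both GRCm38.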

Additional observations from a re-analysis of the deposited data

Results flagged for a closer look

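In 13 of 104 groups of values examined, the highest middle-aged female lay far from the other 4. The limit used is passed in about 1 in 20 groups of normally distributed values. These are counts, so that rate need not hold here. For Gpnmb and Pla2g2d the other 4 were 0, which passes the limit whatever the fifth value is. Several of the 13 come from the same library, so they are not independent. Middle-aged female 2 held 652 normalized counts of S100a9, 511 of Chil3 (a monocyte and neutrophil gene), 116 of F13a1 (a coagulation factor of macrophages) and 5.73 of Pla2g2d. It was as far from the others in the summed markers of neutrophils (2902), border-associated macrophages (171), monocytes (511) and dendritic cells (59.6). Middle-aged female 6 held 189 of Mmp12, 288 of Ttr (the choroid plexus transport protein) and 328 over the choroid plexus and ependymal markers. Middle-aged female 5 held 3.18 of Gpnmb and 33.9 of Bub1. The part of other cell types in these values was not tested.

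The female step differed from the male step, by a test of the difference itself, in 25 named genes. Of these 14 kept the call without aged female 1, and Apoe and Lpl did not (adjusted p = 0.113 and 0.0601). The log2 step was more positive in females for Tnf (4.11), Lyz2 (1.65), Apoe (1.42), Slk (1.41), Lpl (1.35), Ccl4 (1.29), Ccl3 (1.21), Per3 (1.06), Mob3c (0.87), Apobec3 (0.83), Cd83 (0.59) and Abca1 (0.47). It was more negative for Slc9a3r2 (-2.18), Lars2 (-2.13), Fam110a (-1.25), Chtf8 (-0.98), Focad (-0.96), Ercc1 (-0.96), Hk1 (-0.96), Tmem119 (-0.78), Olfml3 (-0.75), Siglece (-0.68), Fcrls (-0.58), Sall1 (-0.50) and H2-DMa (-0.46). Tnf passed in neither sex alone, at 1.78 ± 0.85 in females and -2.33 ± 0.85 in males (limma adjusted p = 0.353 and 0.0649). Aged males averaged 40.7 ± 39.0 (SD, n = 3) normalized counts of Tnf, so its step there is imprecise.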

How the results depend on the processing

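Of 75 named genes called in females, 71 kept the call with DESeq2, 73 with TMM, 75 with rescaled totals, 60 with edgeR, 57 without a filter, 51 in the 8 libraries alone, 68 and 74 with pseudocounts of 0.25 and 8, 32 with the replicate block, 40 without aged female 3, 16 without aged female 1 and 14 without it and middle-aged female 2. None of the 75 changed direction, which leaving out libraries could not have done for genes without overlap between the groups. S100a9 and Chil3, which were not called, did: S100a9 was -0.51 with the replicate block, -2.04 without aged female 1 and -0.35 without it and middle-aged female 2, and Chil3 was -0.13 with edgeR, -0.10 with DESeq2 and -0.96 without aged female 1. Leaving out 1 library, S100a9 ran from -2.04 to 2.62 and Chil3 from -0.96 to 2.94. The 173 calls (116 higher, 57 lower) became 364 (216 and 148) with DESeq2, 20 (15 and 5) without both libraries, and 35 genes were called lower without a filter. Leaving out 1 library gave 21 to 147 calls, 16 to 100 higher and 5 to 61 lower. The lowest values come without aged female 1. Without middle-aged female 2 there were 99 calls, 74 higher and 25 lower, without aged female 3 63 higher, and without middle-aged females 3, 4 or 6 35, 34 and 35 lower.

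The 900 differences between the sexes (476 and 424) became 554 (311 and 243) without both libraries, and the split was 748 against 161 with rescaled totals. Leaving out 1 library gave 626 to 959, 345 to 487 more positive and 281 to 480 more negative. With replicate numbers as a block 52 genes were called in females (43 higher, 9 lower) and 579 between the sexes (259 more negative). The numbers are shared by 2 pairs only of aged and middle-aged females, and whether they mark a batch could not be told. In 150 bases the motif was in 10 of 27 list genes (37.0%) and 1.85% of all genes. Why the counts moved was not tested. The 3 aged libraries limit the precision, and for Gpnmb, Pla2g2d, Ms4a7 and Gpx3 the few reads in middle age do too.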
